A study of Homo sapiens with 6 samples.

Results

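The genes of DNA replication and S phase described here are 50 genes of the 28847 in the table, chosen by name from the replication machinery and its control. They fall into 9 genes of origin licensing, 12 of the helicase and GINS, 20 of the polymerases and sliding clamp and 4 of nucleotide supply. The remaining 5 are grouped here as regulators of the step from G1 into S phase, a name that does not describe UHRF1 among them. Poly-A RNA was sequenced from 6 libraries of cells labelled as the human monocytic leukaemia line THP-1, described by the submitters as a model of unpolarised (M0) macrophages. The control group was 3 libraries labelled as THP-1 alone, and the RBP4 group was 3 libraries labelled as THP-1 with RBP4, a plasma carrier of retinol, given as recombinant human protein. The labels used here give no dose, time, genetic change or agent for differentiation in either group. Nor do they say whether the 3 libraries of a group came from separate cultures, so the p-values measure only the spread between these libraries, which may be technical.

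Replication starts at origins. The origin recognition complex (ORC1 to ORC6), CDC6 and CDT1 load the MCM2 to MCM7 ring onto DNA in G1, and geminin (GMNN) later blocks CDT1 so that an origin is licensed once per cycle. In S phase the ring is joined by CDC45 and GINS and becomes the active helicase, polymerases alpha, delta and epsilon copy the strands with the clamp PCNA, and ribonucleotide reductase and thymidylate synthase supply the nucleotides. Many of these genes are transcribed at the G1/S boundary by E2F factors, which RB proteins hold back in resting cells. In a monocytic line these genes are on while the cells proliferate and are turned down as they differentiate into macrophages.

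The 6 libraries held 15202000 to 16420517 reads assigned to genes, so 3 reads amounted to 0.183 to 0.197 CPM, that is, reads relative to the library's total. Every member was far above that, with means over the 6 libraries from 129.9 normalized reads (CCNE2) to 10523 (MCM7). Normalized reads are the authors' read counts divided by a size factor per library. Mitochondrially encoded genes took 5.90 to 6.10% of the reads in the control libraries and 7.58 to 7.69% in the RBP4 libraries, and their part in the differences below was not tested. The label went against most of the markers: of 24 monocyte and macrophage genes, 19 of them measured, 3 reached 10 CPM in all libraries. The summed level of this list was 125 to 132 CPM in control and 138 to 146 CPM with RBP4. CD14 was at most 0.132 CPM and CD68 at most 0.123 CPM, while CD33 was at 44.8 to 57.5 CPM and SPI1 at 38.6 to 48.1 CPM. Of 24 erythroid genes 20 reached 10 CPM in all libraries, among them the erythroid factor GATA1 at 189.6 to 210.0 CPM. The erythroid list summed to 3589 to 3608 CPM in control and 3207 to 3279.9 CPM with RBP4. Of 12 squamous epithelial genes 1 reached 10 CPM (53.5 to 57.4 CPM against 35.5 to 39.3 CPM), and of the lymphocyte and the fibroblast and endothelial lists 0 did. The groups are therefore called the libraries labelled control and RBP4, shortened to control and RBP4. The part of the erythroid and squamous differences in the results was not tested.

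Replication genes were mostly lower in the RBP4 libraries, by modest amounts. Of the 50 members, all of them tested, 30 fell, 2 rose and 18 did not pass the test (limma on log2 normalized reads, Benjamini-Hochberg adjusted p under 0.05 over all genes). The median log2 fold change of the members was -0.16, with a range from -0.46 to 0.26, and 41 of the 50 were below 0. Scaling to total reads instead gave the members a median of -0.09. Over all 15676 genes tested the median was -0.00, 26.1% fell and 24.5% rose. Raised genes were 48.4% of all calls, and 61.7% with scaling to total reads. Genes of the members' abundance leaned downward too: of 3753 protein-coding genes between 714 and 2404 normalized reads, the interquartile range of the members, 45.8% fell and 18.6% rose (median log2 fold change -0.09). The members' 60.0% lowered stood above both shares, and their 4.00% raised below both, and these differences between shares were not tested. In 31 members every RBP4 library lay below every control library, and in 4 every one lay above. Among all genes tested the groups failed to overlap in those directions for 28.9% and 27.3%. Of the 3753 protein-coding genes of the members' abundance, 1802 lay apart and lower and 739 apart and higher.

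**Figure D1:**
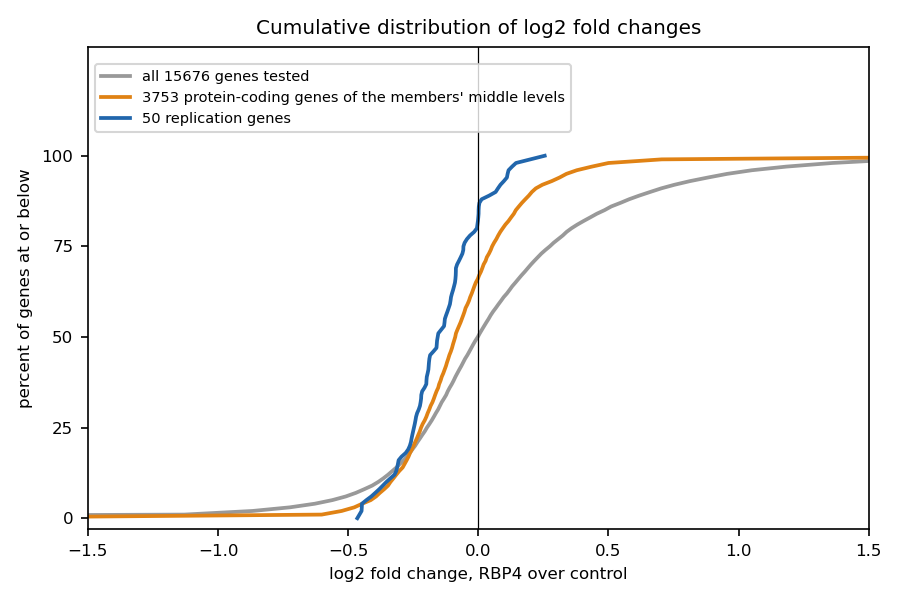
Cumulative distribution of the log2 fold change, RBP4 over control, on the x axis, with the percent of genes at or below each value on the y axis, for the 50 replication genes, the 3753 protein-coding genes of similar level and all 15676 genes tested. The curve of the replication genes is steep and lies left of 0 over most of its height, between -0.46 and 0.26, while the curve of all genes crosses 0 near its middle and is far wider.

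Summed over the 50 members, normalized reads were 109190.3, 108099 and 108528 in the control libraries and 94968, 94416 and 94997 in the RBP4 libraries. The 2 groups did not overlap, and the sum was 12.7% lower with RBP4. As a share of all reads, which does not use the size factors, the members took 0.665 to 0.673% in control and 0.609 to 0.614% with RBP4, so that this share decreased by 8.48%. In bulk RNA, fewer cells in S phase and less RNA of these genes per cell cannot be told apart.

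**Figure D2:**
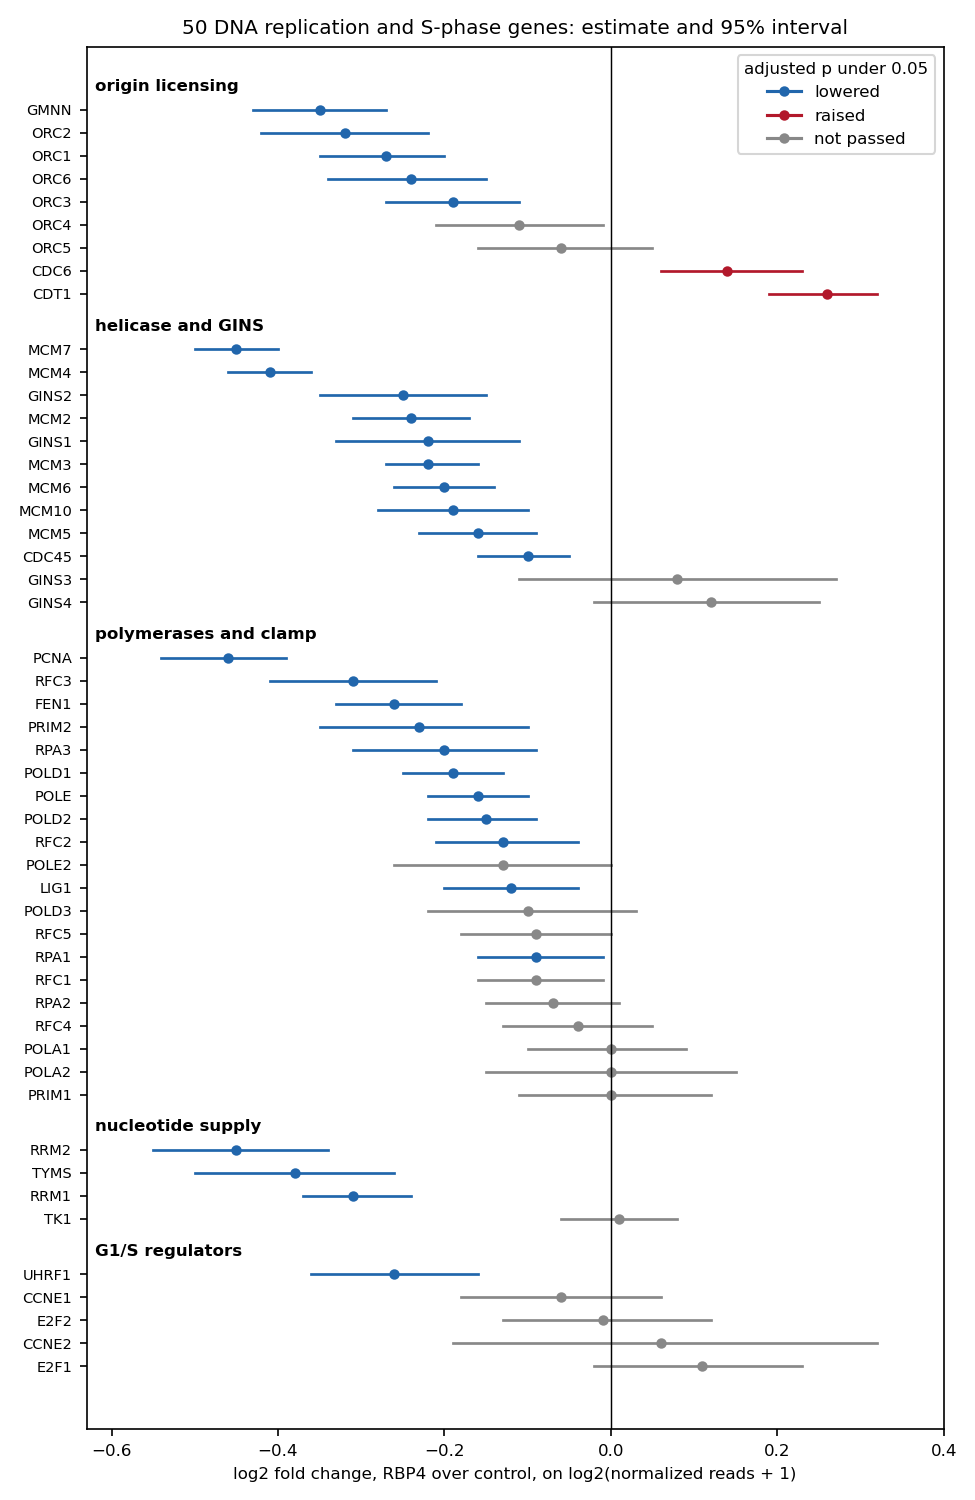
Log2 fold change (x axis, RBP4 over control, on log2 of normalized reads + 1) of each of the 50 members, with points for estimates and lines for 95% intervals, grouped by role and coloured by call. Lowered genes make up most of the helicase group, CDT1 and CDC6 stand to the right of 0, and POLA1, POLA2 and PRIM1 sit at 0.

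Promoter sequence itself was not used to choose the genes. They were chosen from a class that holds many genes transcribed by E2F factors, so their share of E2F-type words is not independent of the choice. RefSeq promoter windows (GRCh38.p14, 250 bases before to 50 after a start) were matched for 43 of the 50 members; MCM4, MCM5, GINS4, POLD3, RPA2, RPA3 and CCNE2 had no entry that was used. The search was for E2F-type words, spelled TTTCCCGC, TTTGGCGC, TTTCGCGC and TTTGCCGC, on both strands; on opposite strands TTTGGCGC and TTTCGCGC can share bases. At least 1 word lay in the windows of 22 of the 43 members (51.2%), or 23 of their 56 starts (41.1%). In all 35116 windows of the table the share was 3.31%, and in those of protein-coding genes 4.10%. The CCAAT word, bound by NF-Y, was found in 26 of the 43 members (60.5%), against 42.1% of the protein-coding genes in the table. TTTGAA, a core of the element of late cell cycle genes, was found in 1 (2.33%), against 15.9%. Of the 22 members with an E2F-type word 14 fell, 2 rose and 6 did not pass (median -0.20). Of the 21 without one 13 fell, 0 rose and 8 did not pass (median -0.13). The lowered share was 60.0% over all 50 members, 26.1% over all genes tested and 45.8% over protein-coding genes of the members' levels. The difference between members with and without a word was not tested. A match is a description of letters and not evidence of a bound site.

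The stretches below are shown because 4 of the genes had the largest falls among members with a word and 2 were the members that rose. The rule called for the 6 largest changes, and the split by direction was made after the values were seen. Each is printed 5′ to 3′ on the strand of the gene, from 40 bases before the first word to the start of transcription or to the end of a word beyond it, with the words in capitals. Regions in order are chr20:5126623-5126721 (minus strand), chr7:100101398-100101624 (minus), chr18:657574-657652 (plus), chr6:24775293-24775412 (plus), chr16:88803714-88803788 (plus) and chr17:40287846-40287893 (plus).
PCNA: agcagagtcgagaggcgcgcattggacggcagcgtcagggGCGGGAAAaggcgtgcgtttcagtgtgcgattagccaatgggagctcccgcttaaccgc
MCM7: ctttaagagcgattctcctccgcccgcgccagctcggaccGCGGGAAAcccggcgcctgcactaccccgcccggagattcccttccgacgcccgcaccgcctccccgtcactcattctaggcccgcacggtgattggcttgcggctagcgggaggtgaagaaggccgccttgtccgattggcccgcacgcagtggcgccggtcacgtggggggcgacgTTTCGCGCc
TYMS: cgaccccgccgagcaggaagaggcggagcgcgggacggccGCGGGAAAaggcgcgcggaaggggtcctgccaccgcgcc
GMNN: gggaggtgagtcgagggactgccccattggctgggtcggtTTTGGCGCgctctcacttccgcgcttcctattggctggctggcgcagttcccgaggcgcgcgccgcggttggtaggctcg
CDT1: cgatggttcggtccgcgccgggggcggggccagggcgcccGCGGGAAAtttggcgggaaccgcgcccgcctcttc
CDC6: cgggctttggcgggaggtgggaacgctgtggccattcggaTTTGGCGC
The same word, GCGGGAAA on the printed strand, stood 59 bases before the start of PCNA and 39 before that of TYMS, which fell, and 35 before that of CDT1, which rose. In GMNN and CDC6 the word was TTTGGCGC, 80 bases before the start of GMNN, which fell, and 8 bases after that of CDC6, which rose.

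Origin licensing held both members that rose. Its 9 genes had a median log2 fold change of -0.19: 5 fell (55.6%), 2 rose (22.2%) and 2 did not pass. These shares stood beside 45.8% lowered and 18.6% raised among protein-coding genes of the members' levels, and 24.5% raised among all genes. The raised share was thus near the background, and the differences were not tested. CDT1 (chr16:88803213-88809258), which brings the MCM ring to the origin, was at 4189, 4096 and 3989 normalized reads in the control libraries and 4999, 4947 and 4704 in the RBP4 libraries. All RBP4 values lay above all control values, a rise of 19.4% (log2 fold change 0.26, SE 0.031, limma adjusted p = 8.2e-11). CDC6 (chr17:40287633-40304657), the ATPase that works with CDT1, was at 1469, 1539 and 1549 in control and 1721, 1555 and 1761 with RBP4. The second RBP4 library was only just above the highest control library, and the rise was 10.5% (log2 fold change 0.14, SE 0.043, limma adjusted p = 0.00432). Without RBP4 replicate 3 the CDC6 value was 0.11 and missed the threshold (limma adjusted p = 0.0584).

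GMNN (chr6:24774931-24786099), the inhibitor of CDT1, moved the other way. It was at 1838, 1709.5 and 1783 normalized reads in control and 1362, 1386 and 1431 with RBP4. The groups were well apart, and the fall was 21.6% (log2 fold change -0.35, SE 0.042, limma adjusted p = 6.4e-11). The ratio of CDT1 to GMNN, taken within each library and so free of scaling between libraries, was 2.28, 2.40 and 2.24 in control and 3.67, 3.57 and 3.29 with RBP4. On the log2 scale it went from 1.20 ± 0.051 to 1.81 ± 0.082 (SD, n = 3 libraries), a difference of 0.61. Every RBP4 library was above every control library, which gave p = 0.10 in an exact two-sided permutation test, the smallest that 3 against 3 can give (adjusted p = 0.15 over the 3 ratios computed).

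**Figure D3:**
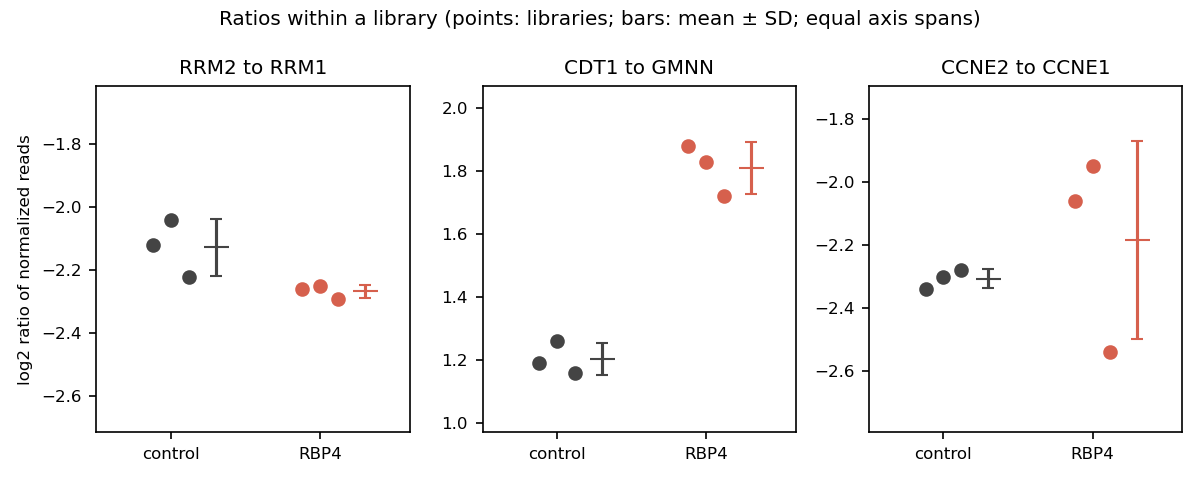
Log2 ratio of normalized reads within each library (y axis, equal spans in the 3 panels) for RRM2 to RRM1, CDT1 to GMNN and CCNE2 to CCNE1, with points for the 3 libraries of each group and bars for the mean ± SD. The CDT1 to GMNN ratio moves from about 1.20 to 1.81 with a wide gap between the groups, RRM2 to RRM1 shifts by -0.14 and CCNE2 to CCNE1 overlaps.

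The 6 subunits of the origin recognition complex had a median of -0.21, and 4 fell (66.7%), 0 rose and 2 did not pass. Beside this, 26.1% of all genes tested and 45.8% of protein-coding genes of the members' levels fell, and the difference was not tested. ORC2 was at 1034, 1160.1 and 1143 normalized reads in control and 929.9, 859 and 884 with RBP4 (log2 fold change -0.32, SE 0.051, limma adjusted p = 2.5e-07). ORC1, the largest subunit and an ATPase, was at 2495, 2523 and 2661 in control and 2175, 2074 and 2103 with RBP4 (-0.27, SE 0.036, limma adjusted p = 2.1e-09). ORC6 was at 1117, 1122 and 1146 in control and 929.9, 966 and 964 with RBP4 (-0.24, SE 0.048, limma adjusted p = 1.9e-05). In each of these subunits the lowest control library was above the highest RBP4 library. ORC3 fell by 12.2% as well, from 1866 ± 100.5 to 1638 ± 25.3. ORC4 went from 1009 ± 41.8 to 936 ± 44.7 and ORC5 from 898 ± 25.3 to 864 ± 45.7 with overlapping groups, and neither passed (limma adjusted p = 0.0683 and 0.379). RNA levels of the subunits differed, with ORC1 at 811 ± 28.1 normalized reads per kilobase of exon in control and ORC4 at 113 ± 4.69. The lengths are those of all annotated exons together, 3157 bases in ORC1 and 8915 in ORC4. A gene with long rare exons is understated by this measure.

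The helicase genes held the largest share of lowered members among the groups of 9 or more. Beside 45.8% lowered and 18.6% raised among protein-coding genes of the members' levels, 10 of the 12 genes fell (83.3%), 0 rose and 2 did not pass. Their median was -0.21, and their summed normalized reads fell by 17.9%. That background covers 714 to 2404 normalized reads. By mean over the libraries, the 6 MCM ring genes and CDC45 lay above this range and GINS3 and GINS4 below it. The background is therefore not matched to the levels of this group, and the difference from its shares was not tested. All 6 subunits of the MCM2 to MCM7 ring fell, with a median of -0.23 and no overlap between groups in any of them. MCM7 (chr7:100092728-100101940), the most abundant member, was at 12362, 11851 and 12207 normalized reads in control and 8546, 9060.0 and 9114 with RBP4. The RBP4 libraries were lower by 26.6% (log2 fold change -0.45, SE 0.025, limma adjusted p = 2.8e-24). MCM4 was at 8031, 8129 and 8236 in control and 6142, 6123 and 6106 with RBP4, a fall of 24.7% with tight replicates (log2 fold change -0.41, SE 0.026, limma adjusted p = 7.1e-22).

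The other 4 subunits had smaller estimates. MCM2 was at 2784, 2822 and 2747 normalized reads in control and 2351, 2339 and 2393 with RBP4 (log2 fold change -0.24). MCM3 was at 6657, 6444 and 6509 in control and 5752, 5534 and 5566 with RBP4 (-0.22). MCM6 was at 4074, 3977 and 3996 in control and 3496, 3515 and 3483 with RBP4 (-0.20). In these subunits each group was tight, and the gap between the groups was several times its spread. MCM5 was at 2648, 2489 and 2539 in control and 2253, 2344 and 2279 with RBP4 (-0.16), the smallest fall in the ring. The ring calls were the same in all 13 alternative analyses.

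Because the subunits share a ring in equal copies, their levels per length can be set side by side. In control, MCM7 was at 2768 ± 59.8 normalized reads per kilobase of exon, MCM3 at 1791 ± 29.9, MCM4 at 1166 ± 14.7, MCM6 at 975 ± 12.4, MCM2 at 568 ± 7.73 and MCM5 at 349 ± 11.1, and no neighbours in this order overlapped in mean ± SD. The lengths are those of all annotated exons together, so a gene with long rare exons is understated. As a share of the 6 subunits' summed level per kilobase, MCM7 went from 36.3 ± 0.328% to 33.3 ± 0.936% and MCM4 from 15.3 ± 0.328% to 14.4 ± 0.145%. MCM3 took 23.5 ± 0.129% in control and 25.3 ± 0.712% with RBP4, MCM6 12.8 ± 0.0664% and 13.9 ± 0.122%, MCM2 7.46 ± 0.177% and 7.91 ± 0.0867%, and MCM5 4.58 ± 0.0894% and 5.13 ± 0.0866%. The 6 shares add up to the whole and are not independent, and no test was made on them. The order of the subunits was the same in both groups.

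Among the genes that turn the ring into the active helicase, the GINS subunits divided. GINS2 was at 983, 1030.3 and 971 normalized reads in control and 814, 847 and 849.9 with RBP4 (log2 fold change -0.25, SE 0.051, limma adjusted p = 3.3e-05). GINS1 fell as well, from 796 ± 18.7 to 685 ± 51.7 (-0.22). GINS3 was at 240.5 ± 14.1 in control and 255 ± 26.2 with RBP4. GINS4 was at 467 ± 36.2 and 504 ± 12.7 without overlap. Neither passed (limma adjusted p = 0.486 and 0.156). With the libraries scaled to total reads GINS4 passed as raised (0.18). MCM10, which helps to activate the helicase, fell by 12.4%. CDC45, which sits beside the ring, fell by 7.02%, from 5437 ± 204 to 5056 ± 112. The CDC45 call was lost with scaling to total reads (-0.04, limma adjusted p = 0.317) and without control replicate 2 (limma adjusted p = 0.0505).

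**Figure D4:**
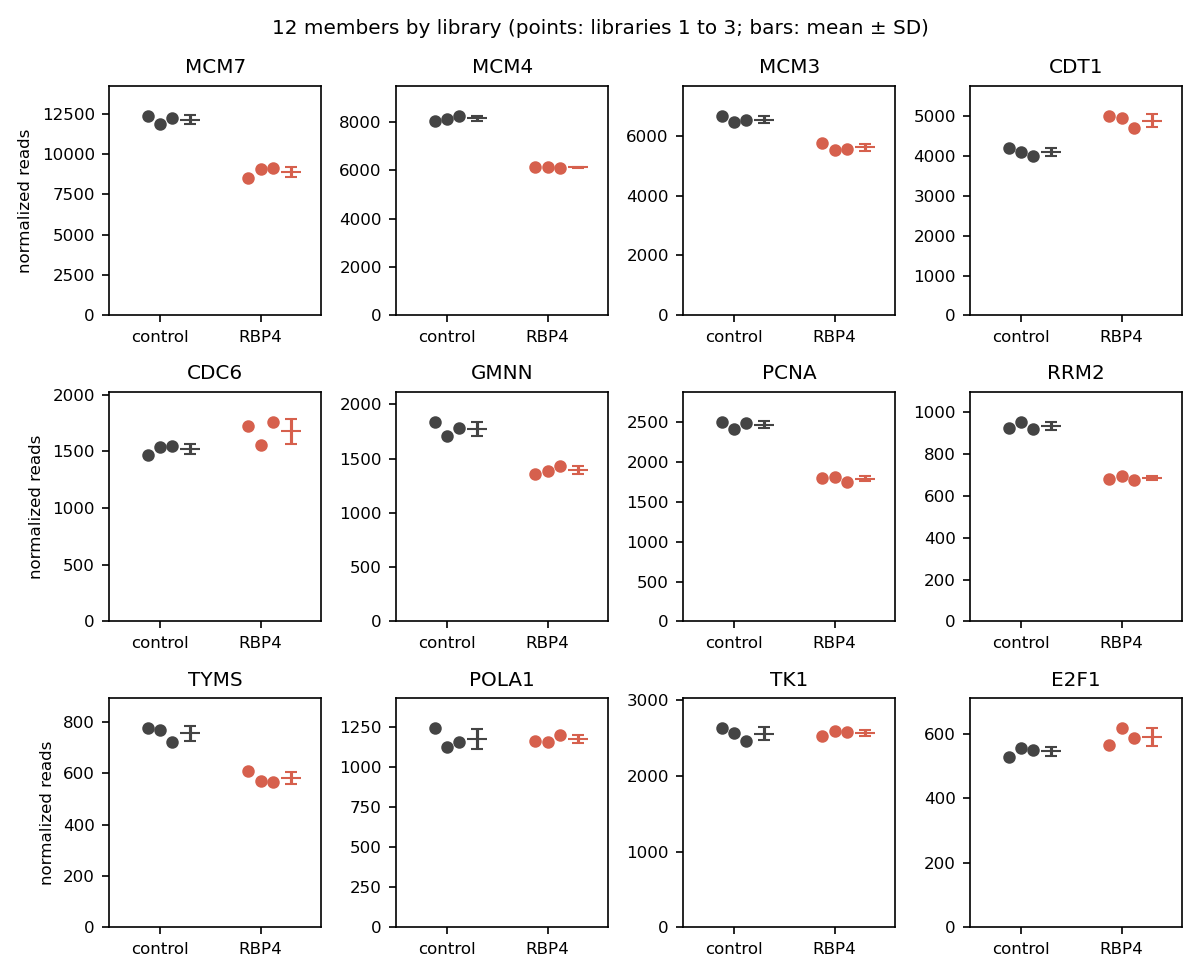
Normalized reads (y axis, from 0) of 12 members in each of the 3 control and 3 RBP4 libraries, with points for libraries and bars for the mean ± SD. MCM7, MCM4, MCM3, GMNN, PCNA, RRM2 and TYMS are lower in every RBP4 library, CDT1 and CDC6 are higher, and POLA1 and TK1 are at the same level in both groups within their spread.

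At the fork itself, 11 of 20 genes of the polymerases and clamp fell (55.0%), 0 rose and 9 did not pass. Their median was -0.12. Of protein-coding genes of the members' levels 45.8% fell and 18.6% rose, and the difference from these shares was not tested. The largest fall of any member was that of PCNA (chr20:5114953-5126626), the ring that holds polymerases on DNA. It was at 2505, 2421 and 2486 normalized reads in control and 1803, 1812 and 1754 with RBP4, lower by 27.6% (log2 fold change -0.46, SE 0.037, limma adjusted p = 1.2e-17). The gap between the groups was far wider than their SDs of 44.0 and 31.1. FEN1, the nuclease that trims Okazaki fragments on PCNA, was at 2129, 2128 and 2083 in control and 1778, 1778 and 1755 with RBP4 (-0.26, SE 0.038, limma adjusted p = 3.7e-08). LIG1, the ligase that then seals the nick, went from 1872 ± 97.5 to 1724 ± 61.6 (-0.12, limma adjusted p = 0.0123), a call lost in 4 of 13 alternative analyses.

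The clamp loader was uneven. RFC3 was at 1216, 1328 and 1126 normalized reads in control and 1006, 937 and 1011 with RBP4, without overlap (log2 fold change -0.31, SE 0.051, limma adjusted p = 5.5e-07). RFC2 fell by 8.52%, a call lost with scaling to total reads (limma adjusted p = 0.250). RFC1, the large subunit, went from 2401 ± 143 to 2259 ± 79.1 and just missed the threshold (limma adjusted p = 0.0528), and it passed as lowered in 5 of the alternative analyses. RFC4 was at 1268 ± 75.6 and 1233 ± 53.9, and RFC5 at 1387 ± 47.7 and 1304 ± 21.7, and neither passed (limma adjusted p = 0.510 and 0.0852).

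In polymerase alpha and primase, which lay down the primers, 3 of the 4 genes had fold changes close to 0. POLA1, the catalytic subunit, was at 1179 ± 61.4 normalized reads in control and 1176 ± 24.6 with RBP4 (95% interval of the log2 fold change -0.10 to 0.09). POLA2 was at 384 ± 8.84 and 385 ± 26.1 (-0.15 to 0.15) and PRIM1, the catalytic primase, at 694 ± 25.3 and 694 ± 24.5 (-0.11 to 0.12). These intervals leave out falls of the size seen in PCNA and MCM7. PRIM2, the large primase subunit, went from 563, 618 and 614 to 518, 516 and 499 (-0.23, SE 0.063, limma adjusted p = 0.00210). The catalytic subunits of the replicative polymerases fell: POLD1 of polymerase delta by 12.5%, from 4098 ± 27.9 to 3587 ± 66.1, and POLE of polymerase epsilon by 10.6%, from 5274 ± 140.4 to 4716 ± 51.2. POLD2 fell by 10.2%. The accessory POLD3 went from 639 ± 50.6 to 597 ± 7.04 and POLE2 from 522 ± 20.0 to 476 ± 21.1, and neither passed (limma adjusted p = 0.193 and 0.0926).

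Replication protein A coats the single-stranded DNA behind the helicase. RPA3, its smallest subunit, fell by 13.0%, from 754 ± 37.2 to 656 ± 17.7. RPA1, the largest, went from 2334 ± 94.6 to 2198 ± 30.6 with overlapping groups (log2 fold change -0.09, limma adjusted p = 0.0445), and this call was lost in 10 of 13 alternative analyses. RPA2 was at 1665 ± 60.1 and 1584 ± 40.8 and did not pass (limma adjusted p = 0.143).

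Nucleotide supply fell in 3 of 4 genes, with a median log2 fold change of -0.34. Lowered genes were 26.1% of all genes tested and 45.8% of protein-coding genes of the members' levels. The difference from these shares was not tested, and with 4 genes the group is not shown to differ from that background. RRM2 (chr2:10120698-10131419), the small subunit of ribonucleotide reductase, was at 927, 954 and 921 normalized reads in control and 681, 695 and 676 with RBP4, lower by 26.7% (-0.45, SE 0.053, limma adjusted p = 6.9e-11). RRM1, the large subunit, was at 4021, 3926 and 4283 in control and 3272, 3315 and 3302 with RBP4 (-0.31, SE 0.032, limma adjusted p = 1.2e-12). The log2 ratio of RRM2 to RRM1 moved from -2.12 ± 0.088 to -2.27 ± 0.017 (SD, n = 3), and the groups did not overlap (exact two-sided permutation p = 0.10, adjusted p = 0.15). TYMS, thymidylate synthase, was at 777, 769 and 723 in control and 608, 572 and 565 with RBP4 (-0.38, SE 0.059, limma adjusted p = 1.2e-07). TK1, which makes the same nucleotide by salvage of thymidine, did not pass: it was at 2552 ± 84.5 in control and 2561 ± 37.0 with RBP4 (95% interval -0.06 to 0.08).

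The genes grouped here as regulators of the G1/S step had a median of -0.01, and 1 of 5 fell (20.0%), 0 rose and 4 did not pass. The lowered share was 26.1% among all genes tested and 45.8% among protein-coding genes of the members' levels, and the difference was not tested. The 1 that fell was UHRF1, and the E2F factors and E-type cyclins did not pass. UHRF1, which recruits DNA methyltransferase to new DNA, was at 1057, 1109.8 and 1134 normalized reads in control and 956, 872 and 928 with RBP4 (log2 fold change -0.26, SE 0.050, limma adjusted p = 1.0e-05). E2F1, an activating E2F factor, was at 546 ± 14.9 in control and 589 ± 27.1 with RBP4, with every RBP4 library above every control library but a limma adjusted p = 0.139. It passed as raised when libraries were scaled to total reads (0.18, limma adjusted p = 0.0143). E2F2 was at 586 ± 42.7 and 583 ± 2.00, with a 95% interval of -0.13 to 0.12. The E-type cyclins, which activate CDK2, did not pass either: CCNE1 was at 630.1 ± 16.8 and 606 ± 38.2, and CCNE2 at 127 ± 5.93 and 133 ± 20.5. Their log2 ratio, CCNE2 to CCNE1, differed by 0.12 between groups that overlapped (exact permutation p = 0.50), and RBP4 replicate 3 was the lowest of all. This difference rested on single libraries: it was 0.30 without RBP4 replicate 3 (exact permutation p = 0.10) and 0.06 and 0.01 without RBP4 replicates 1 and 2.

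The library kit does not mark the strand, so reads in exons shared by genes on opposite strands may be split, dropped or misassigned. The same can happen, whatever the kit, where the genes lie on the same strand, as in the largest overlaps of POLA2, PRIM1 and RRM2. In GENCODE release 29, 29 of the 50 members shared no exonic base with another gene, and 9 shared at least 10% of their exons. These were TYMS (46.6%, most of it with ENOSF1), CCNE2 (37.1%, with INTS8), POLA2 (35.1%), GINS4 (23.6%), MCM2 (23.6%), PRIM1 (21.6%), RRM2 (20.2%), GINS3 (10.9%) and RFC5 (10.6%). ENOSF1, on the strand opposite to TYMS, was at 1119.6 normalized reads in control and 1446 with RBP4, the opposite direction to TYMS. AC007240.1, on the same strand as RRM2, was at 89.9 in control and 57.3 with RBP4, the same direction as RRM2. The pseudogene RRM2P3 stood at 9.56% of the level of RRM2. The levels of these 9 genes are uncertain to that extent, and the part of the overlaps in their differences was not tested.

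In the authors' deposited table, which gives their own comparison of the same libraries, 27 of the 50 members were lowered, 2 were raised and 21 did not pass at an adjusted p under 0.05. The call was the same as here for 47 members, and all 27 genes lowered there were lowered here.

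Other genes of the pathway were taken from 5 lists of 108 genes that hold no member. Their median was -0.12, and of the 106 tested 51 fell (48.1%), 15 rose (14.2%) and 40 did not pass. These shares lie near the 45.8% lowered and 18.6% raised among protein-coding genes of the members' levels, so the lists as a whole are not shown to differ from that background. Among 35 tested factors of origin firing and the fork 19 fell and 3 rose. TOP2A, the topoisomerase that untangles the copies, went from 14953 ± 251 to 12547 ± 343 normalized reads (log2 fold change -0.25), MCMBP, a chaperone of the MCM subunits, from 1531 ± 28.2 to 1156 ± 101 (-0.41), TICRR, which helps to load CDC45, from 1424 ± 53.0 to 1108 ± 15.4 (-0.36) and RAD18, a ligase that modifies PCNA, from 1304 ± 61.8 to 1009.8 ± 11.6 (-0.37). Among 15 further genes of nucleotide supply 8 fell and 2 rose, and those with the smallest p-values were NME1 (-0.50), DUT, which removes dUTP (-0.39), DCTPP1 (-0.42) and CMPK1 (-0.19). Among 18 genes of chromatin behind the fork, whose median was -0.02, 7 fell and 3 rose. The histone chaperone NASP fell from 7834 ± 195 to 6169 ± 239 (-0.35), the histone mRNA binder SLBP by 19.0% (-0.30), and the maintenance methyltransferase DNMT1, the partner of UHRF1, by 12.6% (-0.19), as did SSRP1 of the FACT complex (-0.19).

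Of 24 genes of E2F, RB and S-phase control 12 fell, 4 rose (16.7%) and 8 did not pass, again near the 45.8% and 18.6% of that background. CDKN1A, the p21 inhibitor of cyclin-dependent kinases that also binds PCNA, was at 192, 136 and 159.5 normalized reads in control and 436, 393 and 433 with RBP4. Every RBP4 library was above every control library by a wide margin (log2 fold change 1.38, SE 0.098, limma adjusted p = 2.1e-18), a larger change than that of any member. CCNA2, the S-phase cyclin A, fell from 3878 ± 63.7 to 2801 ± 52.6 (-0.47), SKP2, which targets CDK inhibitors and CDT1 for degradation, by 19.6% (-0.32) and CKS1B, its cofactor, by 15.9% (-0.25). Of 14 tested checkpoint genes 5 fell (35.7%), 3 rose (21.4%) and 6 did not pass. BRCA1 rose from 1822 ± 55.8 to 2489 ± 56.8 (0.45), BRCA2 from 249.9 ± 3.07 to 425 ± 40.6 (0.76) and RAD9A, a subunit of the checkpoint clamp, from 509 ± 38.9 to 705 ± 22.0 (0.47). ATR, the kinase that senses stalled forks, fell from 871 ± 68.4 to 644 ± 26.5 (-0.43).

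The other 11 raised genes of these lists are named because they were few, after their values were seen. They were DONSON (log2 fold change 0.32), TIPIN (0.35) and CHTF8 (0.23) of the fork, TK2 (0.29) and SAMHD1 (0.35) of nucleotide metabolism, CHAF1A (0.10), CASP8AP2 (0.18) and ESCO1 (0.17) of chromatin, and E2F6 (0.20), TFDP2 (0.22) and RB1 (0.16) of E2F control. SAMHD1 degrades the deoxynucleotides that ribonucleotide reductase makes, and RB1 holds back E2F factors. The RB genes were mixed, as RBL2 fell (-0.23, limma adjusted p = 6.2e-06) and RBL1 did not pass (-0.02). In the same list E2F7 (-0.28) and E2F8 (-0.32) fell. Listed but under the filter on low values was MCMDC2. The limit on overlapping genes holds for genes named from these lists too. At least 10% of the exons were shared with another gene in DCTPP1 (42.1%, with ZNF771), TK2 (14.7% with AC010542.4 alone), TIPIN (21.0%) and NME1 (18.6%). The same held for RBL2 (18.2%), DONSON (16.9%), ATR (16.4%), DUT (14.5%), CHTF8 (12.9%) and SAMHD1 (10.3%).

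Genes of mitosis, which come later in the cycle, were mostly lowered. Of 25 such genes 21 fell (84.0%), 0 rose and 4 did not pass. Their median log2 fold change was -0.31, beside -0.16 for the replication genes, and this difference was not tested. The lowered share was 26.1% among all genes tested and 45.8% among protein-coding genes of the replication genes' levels. BUB1, a checkpoint kinase of the spindle, fell from 9099.6 ± 51.2 to 3492 ± 17.3 normalized reads (-1.38). The mitotic cyclin CCNB1 (-0.56), its kinase CDK1 (-0.46) and the spindle checkpoint gene MAD2L1 (-0.61) fell less far than BUB1.

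**Figure D5:**
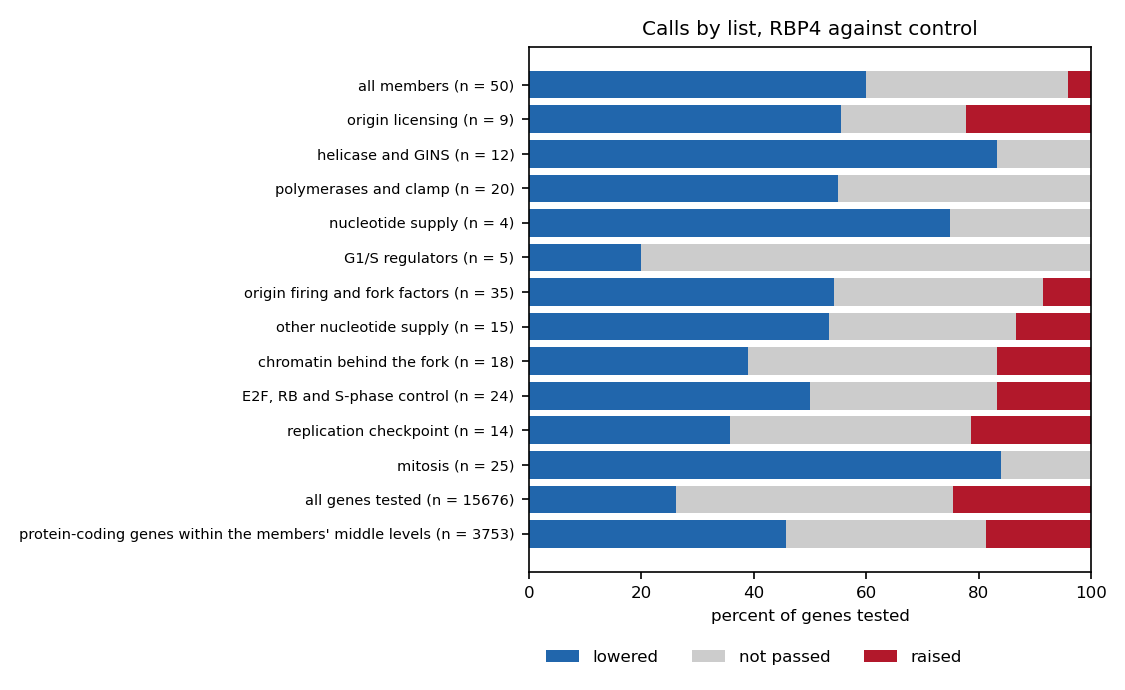
Percent of tested genes that were lowered, did not pass or were raised (x axis, stacked bars to 100%) in the members, their 5 groups, the 6 other lists and the 2 backgrounds, with the number tested beside each name. Lowered genes make up 60.0% of the members, 83.3% of the helicase and GINS genes and 84.0% of the mitotic genes. In the backgrounds they make up 26.1% of all genes tested and 45.8% of protein-coding genes of the members' levels.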

How the data were processed

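The deposited table holds the authors' normalized signal for each gene in each library, that is, counts scaled by 1 size factor a library, and group means. Per the file headers it also holds log2 fold changes and p-values from the authors' comparison. The library kit, a NEBNext Ultra poly-A kit, is named in the labels' protocols; for the aligner and counter, the sources used here give none. All 28847 genes had the start and end of GENCODE release 29 (GRCh38). After division by 1 step per library, 100.0% of values were whole within 0.01 reads; these recovered reads served for depth, CPM and the count tests.

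Genes reaching 10 normalized reads in 3 or more libraries were fitted with limma 3.58.1 (R 4.3.3) on log2(value + 1), with trend and robust moderation, group as the only term and Benjamini-Hochberg adjustment over all 15676 genes tested, two-sided, threshold 0.05. This scale understates the fold changes of low genes. Standard errors (SE) are those of limma's estimates, and ± is the SD over 3 libraries. Alternatives were edgeR 4.0.16 and DESeq2 1.42.0 on recovered reads, scaling to total reads, a pseudocount of 5, no filter, at least 5 CPM in 3 libraries, a replicate block, and each library left out. Without a library the filter asked for 3 of the remaining 5. The scripts were tested on simulated data. The labels name no batch.

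The members and lists were chosen with earlier results of these data known. Per-library values are given for members that rose, for up to 4 lowered members of each group with the largest fold change and for the MCM ring, group means for those that did not pass, and up to 4 genes with the smallest p-values for each other list. The marker genes quoted were picked from the marker lists by hand. A further listed gene under the filter on low values is not reported here.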

Additional observations from a re-analysis of the deposited data

How the results depend on the processing

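Under the 13 alternatives the number of members lowered was 26 to 31, beside 30, and 26 of the 30 lowered, 1 of the 2 raised and 13 of the 18 other members had the same call in all of them. No direction of a called member reversed. Scaling to total reads moved the median of all genes by 0.07 on the log2 scale, that of the members from -0.16 to -0.09, and the share of raised genes among all calls from 48.4% to 61.7%; it gave 26 members lowered and 4 raised, with GINS4 and E2F1 added to the raised genes and CDC45, RFC2, LIG1 and RPA1 no longer passing. Leaving out 1 library at a time gave 28 to 31 members lowered and 1 to 2 raised, with 1 raised without RBP4 replicate 3, where CDC6 missed the threshold. edgeR on recovered reads gave 29 lowered and DESeq2 28, with 2 raised in both.

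With the replicate block 29 members were lowered and 2 raised, and RPA1 was the member whose call changed. Same-numbered libraries did not deviate together (correlations of 0.004, -0.008 and -0.017), so the numbers were not taken to pair the libraries. The log2 difference of the CDT1 to GMNN ratio was 0.57 to 0.65 without any 1 library, that of RRM2 to RRM1 -0.19 to -0.10 and that of CCNE2 to CCNE1 0.01 to 0.30. With 3 libraries a group the exact test of a ratio cannot go below p = 0.10, and this says nothing of its stability. The part of read depth in small differences of low members such as CCNE2 was not tested.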
